A study of Homo sapiens with 6 samples.

Results

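The tetraspanin genes were taken as those whose symbol starts with TSPAN and a digit, together with CD9, CD37, CD53, CD63, CD81, CD82, CD151, UPK1A and UPK1B. Each gene was read from its brightest transcript cluster (a gene-level group of probes) among those with 1 symbol. This gave 31 of the 18276 genes in the table. One of them, TSPAN16-AS1, matched by its letters but is an antisense RNA in RefSeq, which left 30 protein-coding tetraspanin genes (TSPAN19 was not found). TSPAN11 was the one member with more than 1 cluster, and its other cluster gave a fold change of 0.13 on the log2 scale (adjusted p = 0.676).

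SUM159 is an established human triple negative breast cancer cell line, used as a model of the mesenchymal stem-like subtype. The TβRIII-KD group (TGFBR3KD, 3 arrays) held cells with stable knockdown of TGFBR3, which encodes the type III TGF-β receptor. In the study's methods such cells were made with lentivirus carrying an shRNA in pLKO.1-puro and puromycin selection, and after initial tests with more than one vector a single shRNA was used. The control group (3 arrays) is labelled only as control, and both groups were SUM159 cells in 3D matrigel culture, labelled day 6, with no further treatment. The study's blot legends describe control cells that stably expressed a control, without naming its vector. Whether the control arrays came from these cells is not stated. Loss of the receptor and other differences between the cell populations cannot be told apart. Separate cultures are not stated for the arrays of a group, so the p-values measure only the spread between these arrays.

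Tetraspanins are small membrane proteins that cross the membrane 4×, hold a large extracellular loop with conserved cysteines, and gather partner proteins into membrane domains. Among the best known partners are laminin-binding integrins, immunoglobulin-type proteins, the sheddase ADAM10 and membrane growth factors. Several family members are standard markers of extracellular vesicles, and some are studied in carcinoma for their part in adhesion, motility and metastasis.

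TGFBR3 signal on the arrays was lower in the knockdown. Its log2 RMA signal was 9.72, 10.01 and 10.16 on the TβRIII-KD arrays, against 10.81, 10.89 and 10.56 on the control arrays. The log2 fold change was -0.79 (SE 0.13, adjusted p = 0.0145, limma). This call was lost without TβRIII-KD array 2 (adjusted p = 0.0625), control array 1 (0.0770) or control array 2 (0.0554). Pairwise correlations of the arrays were 0.992 to 0.994 within TβRIII-KD, 0.995 to 0.996 within control and 0.986 to 0.992 between the groups. TβRIII-KD array 3 stood alone at one end of the second principal component, which held 21.9% of the variance. Of 6 mesenchymal breast cancer markers (VIM, FN1, ZEB1, CD44, CAV1 and AXL) all had a mean signal above the table median of 7.70, and 5 of 6 epithelial and receptor markers (CDH1, EPCAM, ESR1, PGR, ERBB2 and GRHL2) lay below it, a rough guide since probes differ in brightness. None of these 12 passed the test. The arrays measure bulk RNA, so fewer cells of a type and less RNA per cell cannot be told apart.

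Of the 30 tetraspanin genes, CD9 and CD82 rose and TSPAN18 fell in TβRIII-KD cells at an adjusted p under 0.05 with an absolute log2 fold change over 0.5. TSPAN14 was also higher at an adjusted p under 0.05, but below that fold limit. Signal in TβRIII-KD was 2.27-fold higher than in control for CD9, 1.65-fold higher for CD82, 1.37-fold higher for TSPAN14 and 2.31-fold lower for TSPAN18. The 2 higher members were 6.67% of the family, where 0.772% of all genes were higher at the cutoff, and the 1 lower member was 3.33%, where 1.55% of all genes were lower. At an adjusted p under 0.05 with no fold limit, 4 members (13.3%) were called, against 3.48% of all genes. In 12 members (40.0%) the arrays of the groups did not overlap, against 21.3% of all genes, with TβRIII-KD above control in 10 and below it in 2. An absolute log2 fold change under 0.25 was seen in 21 of the 30 members (70.0%), against 87.1% of all genes, and the family median was 0.08, against 0.01 over all genes. Size and call did not coincide, since TSPAN8 and TSPAN7, which did not pass, had log2 fold changes of 0.76 and 0.73, close to that of CD82 (0.72). These counts describe members that share the same 6 arrays and were not tested as a group.

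**Figure D1:**
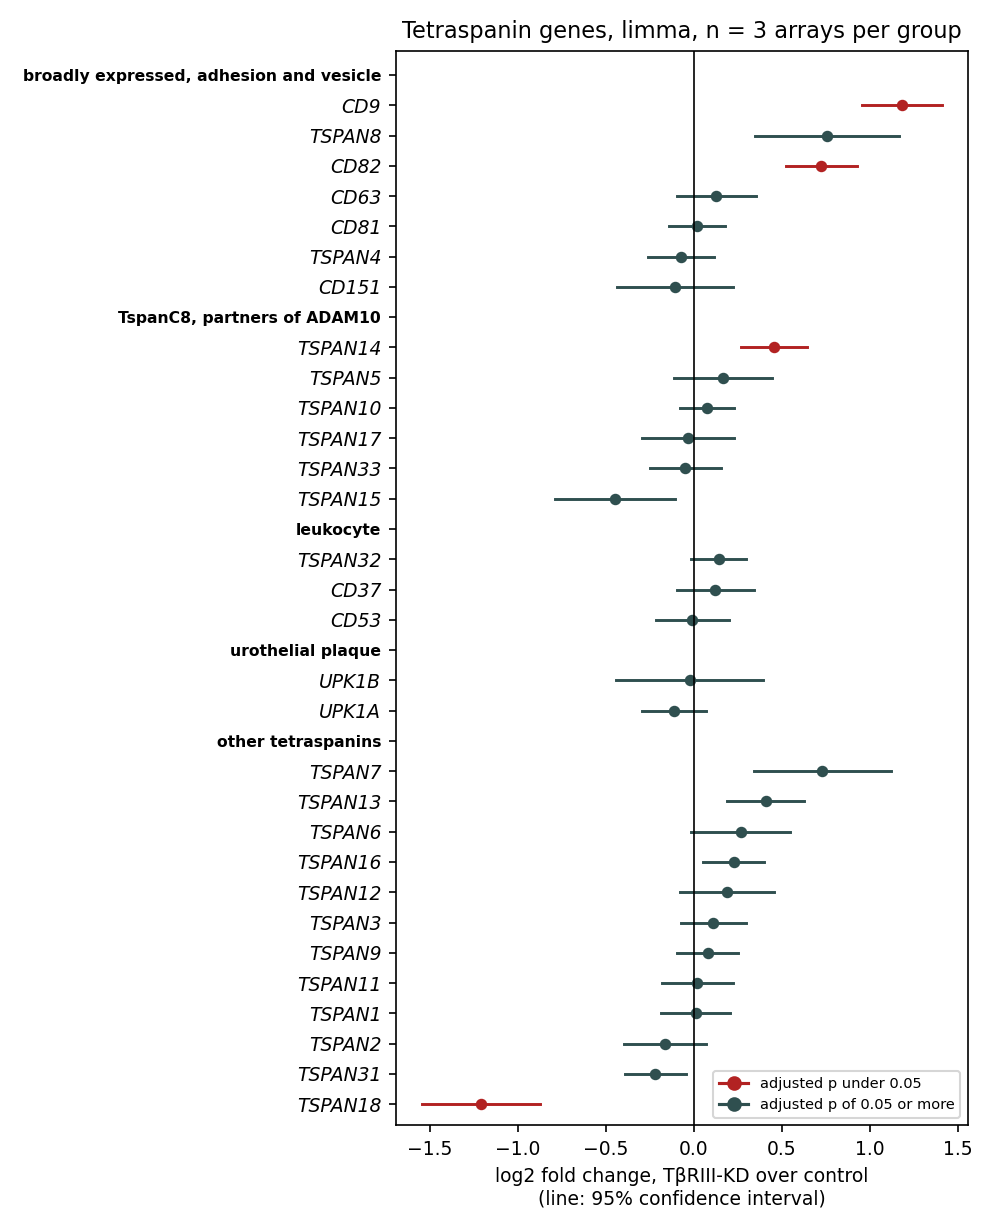
Log2 fold change (TβRIII-KD over control) of the 30 tetraspanin genes with 95% confidence intervals from limma, grouped by role, with genes at an adjusted p under 0.05 in red. CD9 lies at 1.18, CD82 at 0.72, TSPAN14 at 0.46 and TSPAN18 at -1.21, and TSPAN8 (0.76) and TSPAN7 (0.73) have wider intervals than CD82.

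CD9 binds integrins and immunoglobulin-type partners, marks extracellular vesicles and is needed on the egg for fusion with sperm. Its log2 signal was 9.41, 9.19 and 9.07 on the TβRIII-KD arrays, against 8.08, 8.11 and 7.94 on the control arrays. Every TβRIII-KD array lay above every control array, and the gap between the groups was wider than the spread within either. This gave a log2 fold change for CD9 of 1.18 (SE 0.10, 95% interval 0.95 to 1.41, adjusted p = 0.000757, limma). CD82, also called KAI1, is known as a metastasis suppressor in prostate and other carcinomas and binds integrins and growth factor receptors. CD82 had log2 signals of 9.92, 9.93 and 9.98 on the TβRIII-KD arrays, against 9.09, 9.18 and 9.38 on the control arrays. The TβRIII-KD arrays lay close together and above all controls, with a mean of 9.94 ± 0.03 in TβRIII-KD and 9.22 ± 0.15 in control (SD, n = 3 each). For CD82 the log2 fold change was 0.72 (SE 0.09, 95% interval 0.52 to 0.93, adjusted p = 0.00399, limma).

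TSPAN14 belongs to the TspanC8 group, whose members bind the protease ADAM10 and bring it to the cell surface. TSPAN14 had log2 signals of 9.52, 9.44 and 9.48 on the TβRIII-KD arrays, against 8.93, 9.16 and 8.98 on the control arrays. The groups did not overlap, and the controls spread more than the TβRIII-KD arrays. For TSPAN14 the log2 fold change was 0.46 (SE 0.08, 95% interval 0.27 to 0.64, adjusted p = 0.0217, limma). This call was lost without TβRIII-KD array 1 (adjusted p = 0.0660), TβRIII-KD array 2 (0.0650), control array 1 (0.108) or control array 3 (0.0969).

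TSPAN18 is best described in endothelial cells, where it binds the calcium channel protein Orai1. The log2 signal of TSPAN18 was 7.68, 7.84 and 8.23 on the TβRIII-KD arrays, against 9.13, 8.94 and 9.30 on the control arrays. All TβRIII-KD arrays lay below all controls, with TβRIII-KD array 3 the nearest to them. The log2 fold change was -1.21 (SE 0.15, 95% interval -1.54 to -0.87, adjusted p = 0.00398, limma), and -1.37 (adjusted p = 0.000952) without TβRIII-KD array 3. With each single array left out, the log2 fold change of TSPAN18 ranged from -1.37 to -1.09 and its adjusted p from 0.000952 to 0.0329. Of 7 endothelial markers, 2 fell at the cutoff, where 1.55% of all genes did. The log2 fold change of KDR, a VEGF receptor, was -1.73 (SE 0.20, adjusted p = 0.00338), and that of PECAM1, an adhesion molecule of endothelial and blood cells, was -1.04 (SE 0.10, adjusted p = 0.00127). The other 5 (CDH5, VWF, TEK, CLDN5 and ESAM) did not pass, and 6 of the 7 had a mean signal below the table median. On the linear scale their summed signal was 767 to 942 on the TβRIII-KD arrays and 1379 to 1748 on the control arrays. Without KDR and PECAM1 the sum of the other 5 was 477 to 509 on the TβRIII-KD arrays and 470 to 493 on the control arrays, and the median log2 fold change of the 7 was 0.05. RMA values have no true 0, and the part of KDR and PECAM1 in the TSPAN18 result was not tested.

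**Figure D2:**
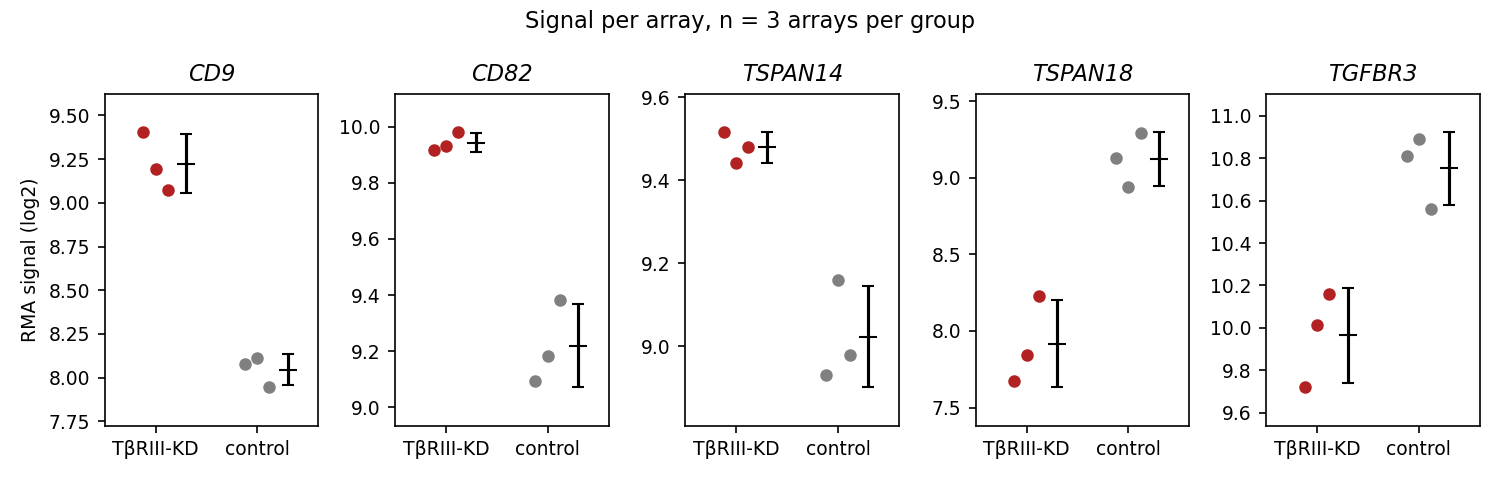
Log2 RMA signal of CD9, CD82, TSPAN14, TSPAN18 and TGFBR3 on each array, with TβRIII-KD in red, control in grey, and bars for the mean ± SD (n = 3 arrays); each panel has its own axis. In every panel the groups are separate, with TβRIII-KD above control for CD9 (9.07 to 9.41 against 7.94 to 8.11), CD82 and TSPAN14 and below it for TSPAN18 and TGFBR3.

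With 3 arrays against 3, an exact two-sided permutation test cannot go below 0.1, which any gene without overlap between the groups gives. CD9, CD82, TSPAN14 and TSPAN18 each gave 0.1. So did TSPAN13, TSPAN7, TSPAN8, TSPAN16 and TSPAN31, which did not pass, and 21.3% of all genes had no overlap. This test therefore cannot set the called members apart. Without TβRIII-KD array 3 the log2 fold change was 1.26 for CD9 (adjusted p = 0.000598), 0.70 for CD82 (adjusted p = 0.00889) and 0.46 for TSPAN14 (adjusted p = 0.0392). With each single array left out, CD9 ranged from 1.09 to 1.26 (adjusted p 0.000598 to 0.00876, limma). CD82 ranged from 0.66 to 0.80 (adjusted p 0.00478 to 0.0242, limma).

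For TSPAN18, the lower called member, no window was available, so the promoter windows of the 3 higher members are shown. They are RefSeq windows of GRCh38.p14, from 250 bases before a transcript start to 50 after it, taken at the start nearest the 5′ end of the gene. Of the 30 members, 22 had such a window. CD9 had 4 windows, TSPAN14 had 3 and CD82 had 1, and only 1 of each gene was read. Capitals mark the GC box (GGGCGG), the CCAAT box (CCAAT) and the CAGA box (CAGAC, the core letters that Smad proteins bind), each searched on both strands. None of these motifs contains another. All of these windows are on the plus strand, with CD9 at chr12:6199696-6199995, CD82 at chr11:44565413-44565712 and TSPAN14 at chr10:80454060-80454359.
CD9: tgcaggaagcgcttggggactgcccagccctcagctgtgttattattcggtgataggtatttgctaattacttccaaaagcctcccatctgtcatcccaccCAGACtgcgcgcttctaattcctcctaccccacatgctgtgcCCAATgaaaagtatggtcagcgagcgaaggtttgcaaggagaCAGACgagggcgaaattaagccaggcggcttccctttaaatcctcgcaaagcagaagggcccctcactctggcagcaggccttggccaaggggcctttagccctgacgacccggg
CD82: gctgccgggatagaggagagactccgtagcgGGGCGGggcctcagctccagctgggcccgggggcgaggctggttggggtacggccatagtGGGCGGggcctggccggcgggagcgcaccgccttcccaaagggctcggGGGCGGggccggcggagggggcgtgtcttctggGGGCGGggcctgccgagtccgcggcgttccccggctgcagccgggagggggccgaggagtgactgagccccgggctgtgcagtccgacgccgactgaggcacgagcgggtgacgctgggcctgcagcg
TSPAN14: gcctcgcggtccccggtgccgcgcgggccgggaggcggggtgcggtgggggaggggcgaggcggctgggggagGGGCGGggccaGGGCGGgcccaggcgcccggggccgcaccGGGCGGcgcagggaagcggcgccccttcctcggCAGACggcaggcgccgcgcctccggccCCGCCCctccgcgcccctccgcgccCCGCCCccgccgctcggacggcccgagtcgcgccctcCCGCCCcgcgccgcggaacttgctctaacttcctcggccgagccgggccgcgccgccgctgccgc
The CD9 window had a GC content of 55.3% and 12 CpG dinucleotides, and it held 1 CCAAT box, 2 CAGA boxes and no GC box. The CD82 window had a GC content of 76.7% and 33 CpG dinucleotides, with 4 GC boxes and neither of the other motifs. The TSPAN14 window had a GC content of 85.7% and 53 CpG dinucleotides, with 6 GC boxes and 1 CAGA box. Thus no motif searched was present in all 3 windows. CD82 and TSPAN14 both held GC boxes, and CD9 and TSPAN14 both held a CAGA box. Over all 35116 RefSeq windows, 45.0% held a GC box, 34.6% a CCAAT box and 45.3% a CAGA box. Of the 22 members' windows, 11 held a GC box, 8 a CCAAT box and 10 a CAGA box. A TATA box (TATAAA) and an AP-1 site (TGACTCA) were searched as well, and none of the 3 windows held one. They occurred in 1 member's window each, against 11.5% and 4.95% of all windows. A match is a description of letters and shows no binding.

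CD82 and TSPAN18 are neighbours on chromosome 11, with 0 protein-coding genes between them in the RefSeq order, and they changed in opposite directions. The next gene beyond TSPAN18, TP53I11 (p53-inducible protein 11), was examined after its values were seen. Its log2 signal was 7.65, 7.47 and 7.69 on the TβRIII-KD arrays, against 8.70, 8.58 and 8.91 on the control arrays. TP53I11 fell with TSPAN18, and its log2 fold change was -1.13 (SE 0.10, adjusted p = 0.00114, limma). The RefSeq spans of TSPAN18 and TP53I11 share 76 bases, and how the array probes of either lie against these bases was not analysed here. The genes further out (ACCS, EXT2 and ALX4 before CD82, PRDM11 and SYT13 beyond TP53I11) had log2 fold changes of -0.10 to 0.09, and none passed. Chromosome 11 held 6 of the members in all, of which CD151, CD81, TSPAN4 and TSPAN32 did not pass.

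**Figure D3:**
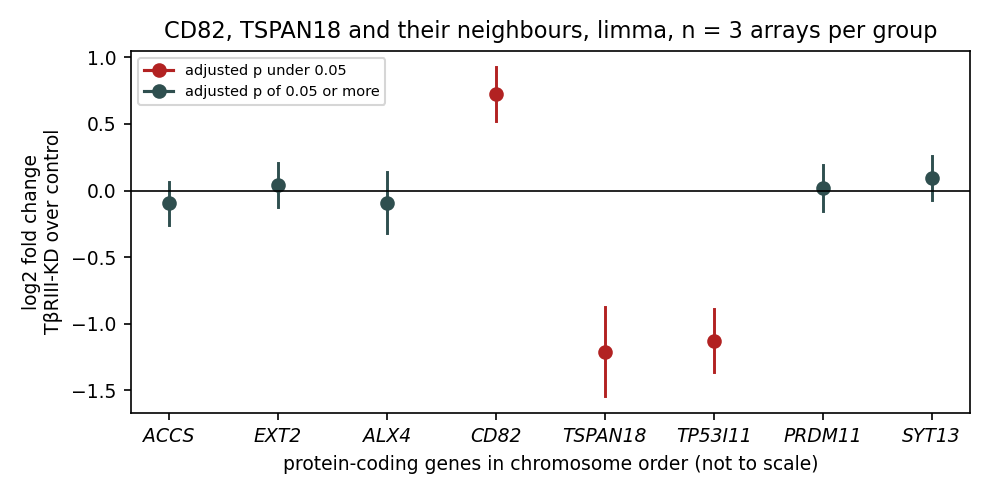
Log2 fold change (TβRIII-KD over control) with 95% confidence interval for CD82, TSPAN18 and the protein-coding genes on either side of them in chromosome order, not to scale. CD82 lies at 0.72 and TSPAN18 and TP53I11 lie at -1.21 and -1.13, while the other genes lie between -0.10 and 0.09.

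The next members by p-value did not pass the adjusted test. TSPAN8, a tetraspanin raised in several gastrointestinal carcinomas, had log2 signals of 8.22, 8.41 and 8.62 on the TβRIII-KD arrays, against 7.72, 8.01 and 7.26 on the control arrays. Its log2 fold change was 0.76 (SE 0.18, 95% interval 0.34 to 1.17, adjusted p = 0.0634, limma). The groups did not overlap, but the controls spread widely, and the adjusted p was 0.0336 without control array 2. TSPAN7, a brain-rich member whose variants cause X-linked intellectual disability, had log2 signals of 8.30, 8.44 and 8.06 on the TβRIII-KD arrays, against 7.24, 7.92 and 7.44 on the control arrays. Its log2 fold change was 0.73 (SE 0.17, 95% interval 0.34 to 1.12, adjusted p = 0.0608, limma). Control array 2 was again the control nearest to TβRIII-KD, and the adjusted p was 0.0154 without it and 0.0419 without TβRIII-KD array 3. TSPAN13 had log2 signals of 7.91, 7.88 and 8.11 on the TβRIII-KD arrays, against 7.63, 7.63 and 7.42 on the control arrays. Its groups did not overlap, and the log2 fold change was 0.41 (SE 0.10, 95% interval 0.19 to 0.62, adjusted p = 0.0593, limma).

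TSPAN15, another TspanC8 member and the one tied to N-cadherin cleavage, stood on the other side. Its log2 signal was 9.96, 9.83 and 9.50 on the TβRIII-KD arrays, against 9.95, 10.44 and 10.23 on the control arrays, and the groups overlapped through TβRIII-KD array 1 and control array 1. Its log2 fold change was -0.45 (SE 0.15, adjusted p = 0.181, limma). TSPAN31, found as an amplified gene in sarcoma, had log2 signals of 10.43, 10.33 and 10.51 on the TβRIII-KD arrays, against 10.62, 10.70 and 10.62 on the control arrays. The groups did not overlap, and the log2 fold change was -0.22 (SE 0.08, adjusted p = 0.198, limma). Its RefSeq span shares 2493 bases with CDK4, whose log2 fold change was -0.48 (adjusted p = 0.0575). TSPAN16 had log2 signals of 5.15, 5.12 and 5.11 on the TβRIII-KD arrays, against 4.85, 5.01 and 4.84 on the control arrays, and the difference was 0.23 (SE 0.08, adjusted p = 0.181, limma). Its signal lay below the table median on all arrays, with no overlap between the groups.

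**Figure D4:**
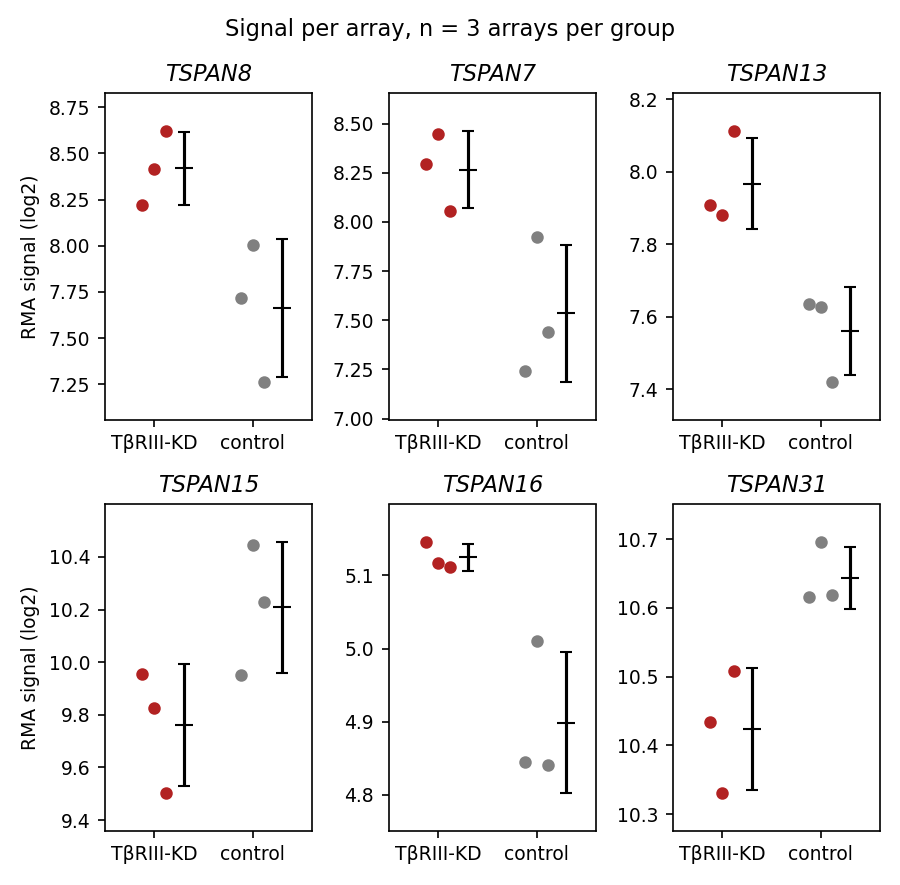
Log2 RMA signal of TSPAN8, TSPAN7, TSPAN13, TSPAN15, TSPAN16 and TSPAN31 on each array, with TβRIII-KD in red, control in grey, and bars for the mean ± SD (n = 3 arrays); each panel has its own axis. TSPAN15 is the only one of the 6 whose groups overlap (9.50 to 9.96 in TβRIII-KD against 9.95 to 10.44 in control), and none of the 6 passed the adjusted test.

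CD63, CD81 and CD151, which with CD9 are the most widely used vesicle and integrin-associated members, did not pass the test. CD81, an entry receptor of hepatitis C virus, had log2 signals of 12.49, 12.40 and 12.46 on the TβRIII-KD arrays, against 12.48, 12.42 and 12.39 on the control arrays. The groups overlapped, and the 95% interval of its log2 fold change ran from -0.14 to 0.18 (adjusted p = 0.930, limma). CD63, a late endosome and vesicle protein, had log2 signals of 10.07, 10.12 and 10.28 on the TβRIII-KD arrays, against 9.92, 9.97 and 10.20 on the control arrays. Its log2 fold change was 0.13 (95% interval -0.10 to 0.35, adjusted p = 0.608, limma), with overlapping groups. CD151, the closest partner of the laminin-binding integrins, had log2 signals of 12.15, 11.67 and 11.69 on the TβRIII-KD arrays, against 11.85, 12.16 and 11.83 on the control arrays. Single arrays of both groups stood apart, and the log2 fold change of -0.11 had an interval of -0.44 to 0.22 (adjusted p = 0.784, limma). These intervals bound the change of CD81 and CD63 closely and that of CD151 less so, and a p that misses the threshold does not show that the levels were equal.

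By role, 2 of the 7 members grouped under adhesion and vesicles rose (CD9 and CD82), where 0.772% of all genes did. In that group CD63, CD81, CD151, TSPAN4 and TSPAN8 did not pass. Of the 6 TspanC8 members, TSPAN14 alone passed at an adjusted p under 0.05, where 3.48% of all genes did, and the group's median log2 fold change was 0.02. The 3 leukocyte members (CD37, CD53 and TSPAN32) had log2 fold changes of -0.01 to 0.14 and did not pass. Leukocyte markers did not pass either (0 of 11), with a summed linear signal of 859 to 919 on the TβRIII-KD arrays and 880 to 895 on the control arrays. Both urothelial plaque members did not pass, at -0.11 for UPK1A and -0.02 for UPK1B, and neither did any of 4 urothelial markers, with summed linear signals of 466 to 510 on the TβRIII-KD arrays and 450 to 491 on the control arrays. The log2 fold change of TSPAN10, a TspanC8 member known from pigment cells, was 0.08 (adjusted p = 0.666), and 0 of 4 melanocyte markers passed, with summed linear signals of 389 to 424 on the TβRIII-KD arrays and 378 to 391 on the control arrays. The other 12 members held 1 call, the fall of TSPAN18, where 1.55% of all genes fell. Over the family, 13 members had a mean signal below the table median, and none of them passed, with absolute log2 fold changes of at most 0.23. The 17 members not described by their single arrays ranged from -0.17 to 0.27, 10 of them above 0 and 7 below, with a median of 0.02. In RefSeq, 8 of the 30 members overlap another protein-coding gene, and among the called members this holds for TSPAN18.

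Genes of the proteins that tetraspanins gather were read from the same fit. These lists were chosen with earlier results of these data known, so counts of calls in them are descriptions and not tests. Of 10 integrin genes listed as tetraspanin partners, 0 passed, where 3.48% of all genes had an adjusted p under 0.05. Above 0 were 7 of the list, where 9951 of all 18276 genes were. The list holds neither ITGA2 nor ITGB2, which passed in the same fit and were added after their values were seen. ITGA2, a chain of a collagen receptor, had log2 signals of 11.28, 11.15 and 10.84 on the TβRIII-KD arrays, against 9.97, 10.13 and 10.12 on the control arrays (log2 fold change 1.02, SE 0.12, adjusted p = 0.00311, limma). ITGB2, the leukocyte β2 chain, had log2 signals of 7.34, 7.09 and 7.25 on the TβRIII-KD arrays, against 7.91, 7.79 and 8.10 on the control arrays (log2 fold change -0.71, SE 0.10, adjusted p = 0.00858, limma). Within the list, ITGA6, the laminin-binding α6 chain that pairs with CD151 and CD9, had the smallest p. Its log2 signal was 9.28, 9.03 and 8.73 on the TβRIII-KD arrays, against 8.44, 8.54 and 8.02 on the control arrays, without overlap. For ITGA6 the log2 fold change was 0.68 (SE 0.17, adjusted p = 0.0734, limma). None of 4 genes of the EWI family, an immunoglobulin-type family that includes partners of CD9 and CD81, passed. Their log2 fold changes were -0.02 to 0.07, led by CD101 (adjusted p = 0.708).

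Of 10 genes for ADAM10, ADAM17 and proteins they cleave, 1 fell, where 1.55% of all genes did. The list's median log2 fold change was 0.02, with 5 genes above 0 and 5 below. NOTCH2, a receptor cut by ADAM10 once bound by ligand, had log2 signals of 9.70, 9.71 and 10.03 on the TβRIII-KD arrays, against 10.38, 10.31 and 10.60 on the control arrays. Its log2 fold change was -0.62 (SE 0.12, adjusted p = 0.0258, limma). The groups did not overlap, but the call was lost without TβRIII-KD array 1 (0.0779), TβRIII-KD array 2 (0.110), control array 1 (0.0928) or control array 3 (0.0956). NOTCH1, in the same list, lay on the other side at 0.41 (adjusted p = 0.201, limma), also without overlap. For ADAM10 itself, the partner of TSPAN14 and TSPAN15, the log2 fold change was 0.22 (adjusted p = 0.366).

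Of 15 other membrane proteins listed with tetraspanins, 3 rose, where 0.772% of all genes did. This list too was chosen with earlier results known, so the count is not a test. ALCAM, an adhesion molecule that associates with CD9, had log2 signals of 9.90, 9.92 and 9.79 on the TβRIII-KD arrays, against 8.86, 8.63 and 8.23 on the control arrays (log2 fold change 1.30, SE 0.15, adjusted p = 0.00275, limma). CLDN1, a tight junction protein found in complexes with CD81 and CD9, had log2 signals of 8.00, 8.12 and 8.29 on the TβRIII-KD arrays, against 6.92, 7.30 and 6.88 on the control arrays (log2 fold change 1.10, SE 0.13, adjusted p = 0.00310, limma). SLC7A11, the cystine and glutamate exchanger that pairs with SLC3A2, had log2 signals of 9.92, 9.79 and 9.64 on the TβRIII-KD arrays, against 8.72, 8.79 and 8.60 on the control arrays (log2 fold change 1.08, SE 0.09, adjusted p = 0.000908, limma). In all 3 genes the groups did not overlap. The list's median log2 fold change was -0.03, with 7 genes above 0 and 8 below, so the 3 rises stood beside 12 genes that did not pass. Among these 12 were SLC3A2, at 0.18 (adjusted p = 0.324, limma), and HBEGF, the lowest of the list, at -0.48 (adjusted p = 0.0535, limma).

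Of 25 vesicle and ESCRT genes, 22 were measured by clusters with 1 symbol, 1 rose at the cutoff (0.772% of all genes) and 1 was lower at the adjusted p alone. RAB27B, a GTPase of vesicle secretion, had log2 signals of 8.98, 8.22 and 8.08 on the TβRIII-KD arrays, against 7.25, 7.45 and 7.05 on the control arrays (log2 fold change 1.18, SE 0.22, adjusted p = 0.0240, limma). Its relative RAB27A had log2 signals of 8.24, 7.93 and 7.92 on the TβRIII-KD arrays, against 8.46, 8.44 and 8.57 on the control arrays (log2 fold change -0.46, SE 0.10, adjusted p = 0.0465, limma). These relatives thus differed in direction, with no overlap between groups in either. The RAB27B call was lost without TβRIII-KD array 2 (0.0701), control array 1 (0.0990) or control array 3 (0.0920), and that of RAB27A whichever array was left out (0.0860 to 0.169) except TβRIII-KD array 1 (0.0180). The list's median log2 fold change was -0.03, and CD9 was the one vesicle marker tetraspanin among CD9, CD63 and CD81 that rose.

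**Figure D5:**
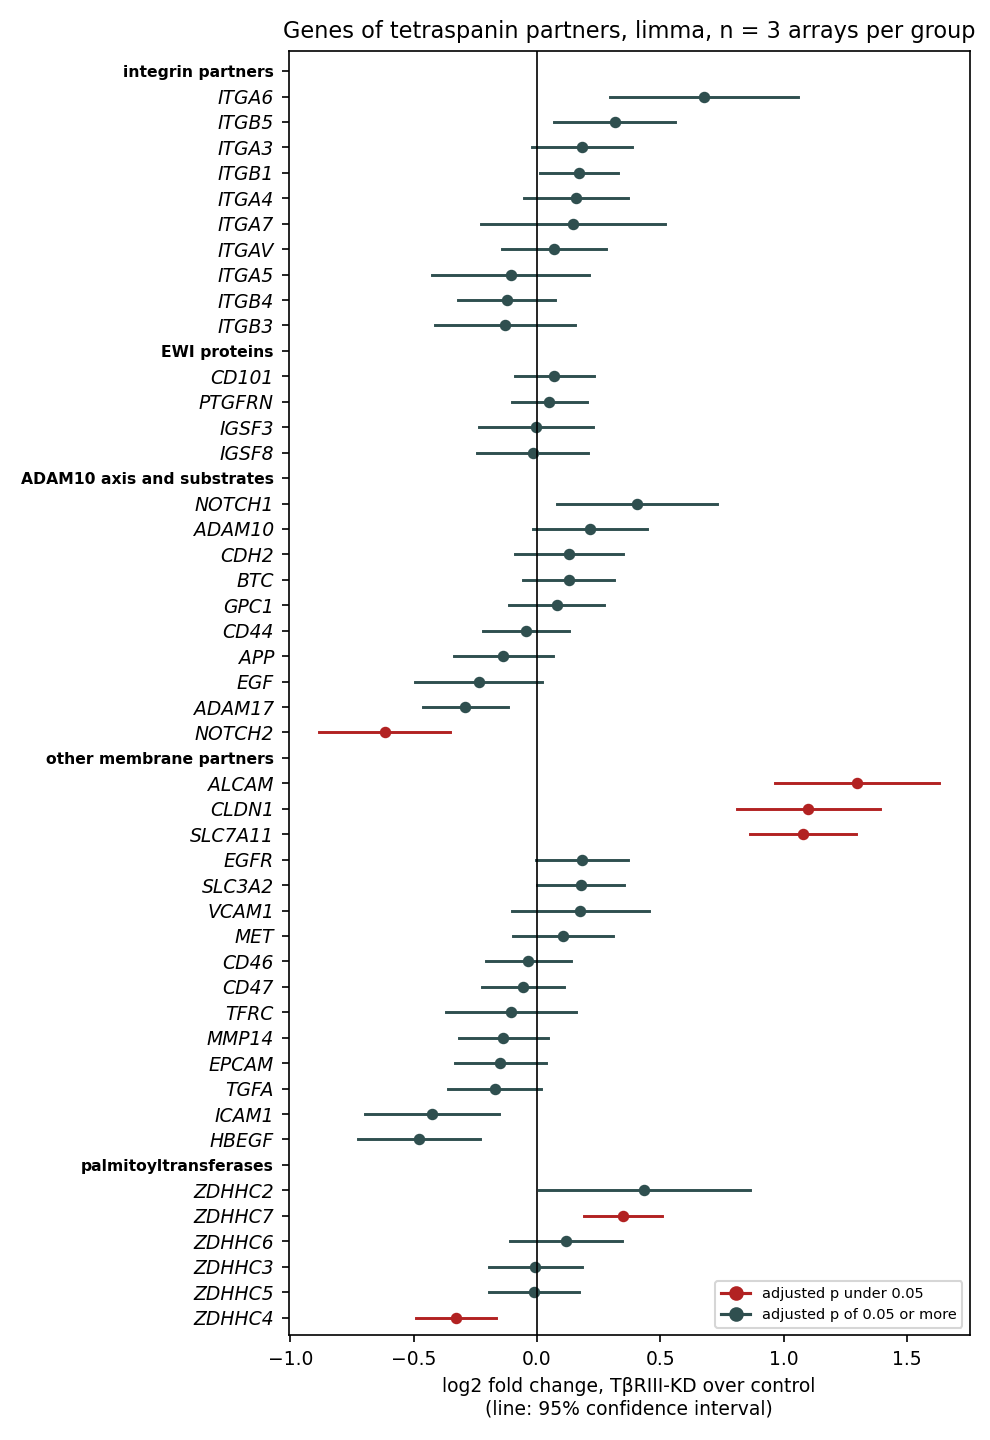
Log2 fold change (TβRIII-KD over control) with 95% confidence intervals for genes of tetraspanin partners and palmitoyltransferases, with genes at an adjusted p under 0.05 in red. ALCAM (1.30), CLDN1 (1.10) and SLC7A11 (1.08) lie above 1, ITGA6 (0.68) is the highest of the 10 listed integrin chains, which leave out ITGA2, and NOTCH2 (-0.62) is the lowest gene shown.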

How the data were processed

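RNA of 3 TβRIII-KD and 3 control SUM159 samples was hybridized to Affymetrix Human Gene 1.0 ST arrays. The authors deposited log2 signals made in R 3.0.1 with oligo's RMA, a method of background correction, quantile normalization and summary of probes per transcript cluster. This can compress small changes of dim genes. The sources used here give no filter behind the 22148 transcript clusters, and signal over background was not analysed, so the number of arrays is the stated limit on precision. Symbols came from the platform annotation (19129 clusters with 1 symbol, 1735 with several, 1284 with none), and gene order, biotype and promoters from RefSeq GRCh38.p14. The comparison of TβRIII-KD with control used limma 3.58.1 in R 4.3.3 (unpaired, two-sided, Benjamini-Hochberg over all clusters, 95% intervals). SE is limma's moderated standard error. The cutoff was an adjusted p under 0.05 with an absolute log2 fold change over 0.5. The procedure was tested on simulated data.

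The members and gene lists were chosen with earlier results of these data known. Genes were named by rule: TGFBR3, members with an adjusted p under 0.05, further members by p up to 10, CD9, CD63, CD81, CD82 and CD151, and per list up to 4 genes with an adjusted p under 0.05 by fold or else the gene with the smallest p. ADAM10, TP53I11, CDK4, ITGA2, ITGB2, TSPAN10, UPK1A, UPK1B, HBEGF and NOTCH1 were added after their values were seen. SLC3A2, TSPAN12, the neighbours of CD82 and TSPAN18, and members whose sign changed under the alternatives are also named outside the rule. Alternatives were trend or robust moderation, array weights, the methods' t-test, a filter on dim clusters, other feature sets, median centring, repeated quantile normalization, a replicate block, other fold limits and each array left out.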

Additional observations from a re-analysis of the deposited data

How the results depend on the processing

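CD9, CD82 and TSPAN18 kept their direction and an adjusted p under 0.05 in all alternatives except the methods' t-test after adjustment (0.0772, 0.103 and 0.144). Their adjusted p ranged over the alternatives from 0.000327 to 0.0772 for CD9, 0.00223 to 0.103 for CD82 and 0.000531 to 0.144 for TSPAN18. The count of 2 members higher at the cutoff became 0 and that of 1 member lower became 0 with that adjusted t-test. The higher count was 4 with the t-test unadjusted, 4 with a replicate block, 1 with a fold limit of 1, and 2 to 5 with single arrays left out (5 without control array 2). No pairing by replicate number is stated. Correlations of same-numbered deviations were -0.060, 0.110 and 0.307, against -0.387 to 0.337 between different numbers. With 3 arrays per group these values cannot decide whether the arrays were paired. With the block TSPAN7 (adjusted p = 0.00992) and TSPAN8 (0.0483) passed as well. TSPAN7 also passed with a moderation trend (0.0496), array weights (0.0423) and the dim filter (0.0470), and TSPAN13 with the trend (0.0498) and the filter (0.0391). ITGA6 passed with the block (0.00568) and without TβRIII-KD array 3 (0.0266). ITGA2 (0.122) and ITGB2 (0.147) lost their calls only in the adjusted t-test. TGFBR3 had an adjusted p of 0.198 in the adjusted t-test at an unchanged fold change of -0.79. With single arrays left out its log2 fold change was -0.89 to -0.67, and its adjusted p 0.0625 without TβRIII-KD array 2, 0.0770 without control array 1 and 0.0554 without control array 2. Sign changed for genes whose fold change was near 0 in the comparison as reported: with array weights UPK1B had 0.017 and TSPAN1 -0.0067, and with single arrays left out the ranges crossed 0 for CD81 (-0.0014 to 0.0446), UPK2 (-0.1128 to 0.0355), CD53 (-0.0885 to 0.0599), TSPAN11 (-0.05 to 0.0838), TSPAN1 (-0.0366 to 0.0898), TSPAN17 (-0.1047 to 0.094), TSPAN33 (-0.1146 to 0.0071) and UPK1B (-0.1471 to 0.1851). Of 1003 values of 57 genes under the alternatives, the unadjusted t-test included, 906 kept direction and side of the threshold, 51 lost the call, 27 gained one and 19 changed sign. Causes were not tested. The 3 arrays per group limit the precision, most for changes near the fold limit.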

Other observations

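Smaller lists around the family were read as well. Palmitoyltransferases are the enzymes that attach the lipid anchors tetraspanins carry. Of 6 such genes, 1 was higher and 1 lower at an adjusted p under 0.05, where 3.48% of all genes passed. The log2 fold change was 0.35 for ZDHHC7 (SE 0.07, adjusted p = 0.0338, limma) and -0.33 for ZDHHC4 (SE 0.07, adjusted p = 0.0477, limma), both below the fold limit. Both calls were lost whichever array was left out, at adjusted p of 0.0589 to 0.127 for ZDHHC7 and 0.0754 to 0.203 for ZDHHC4. None of the 5 genes of the Norrin receptor complex that TSPAN12 joins passed, with NDP, the Norrin gene, at 0.19 (adjusted p = 0.374), and the log2 fold change of TSPAN12 itself was 0.19 (adjusted p = 0.511). Neither of 2 uroplakin partners passed, with UPK2 at -0.03 (adjusted p = 0.910). PRPH2, a retinal tetraspanin outside the family's usual symbols, was at 0.09 (adjusted p = 0.662). None of 5 L6 family genes, 4-span proteins once grouped with tetraspanins, passed, with TM4SF1 at -0.19 (adjusted p = 0.264). The genes with the smallest p of the remaining marker lists were MS4A1 (0.22, adjusted p = 0.388), PSCA (0.11, adjusted p = 0.602), MITF (0.11, adjusted p = 0.598), AXL (0.18, adjusted p = 0.243) and EPCAM (-0.15, adjusted p = 0.445). The summed linear signal of the mesenchymal markers was 27090 to 31423 on the TβRIII-KD arrays and 29679 to 31836 on the control arrays, and that of the epithelial and receptor markers 709 to 793 on the TβRIII-KD arrays and 730 to 731 on the control arrays.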
